A study of Chlorocebus aethiops with 12 samples.

Results

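Inflammatory cytokines and chemokines were followed through the accessions of 10 human transcripts, namely IL6 (NM_000600), IL11 (NM_000641), LIF (NM_002309), CSF1 (NM_000757), CCL2 (NM_002982), CCL20 (NM_004591), CXCL8 (interleukin 8, NM_000584), CXCL1 (NM_001511), CXCL2 (NM_002089) and PTGS2 (NM_000963). Their spots were found on each array by accession, with gene names taken from the rule that defines the set, since the files pair accessions with no names. Probes of 9 of the 10 were found, and the CSF1 accession was absent. These 9 accounted for 12 of the 41000 probes and 39 of the 43376 non-control spots of an array. Of the 9, 5 were measured well enough to be tested, among 23754 of all 32379 accessions.

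RNA came from COS-1, a fibroblast-like kidney line of the African green monkey, and was read on 12 one-colour Agilent arrays with 3 biological replicates in each of 4 groups. The groups were cells given GR and MDFIC and then Dex, cells given GR and MDFIC and then vehicle, cells given GR alone and then Dex, and cells given GR alone and then vehicle. GR is the glucocorticoid receptor, a transcription factor switched on by its ligand. Dex is dexamethasone, a synthetic glucocorticoid, used at 100 nM for 6 h from 48 h after transfection. MDFIC is the MyoD family inhibitor domain containing protein. All 4 groups therefore carried transfected GR, and the medium of all 4 held charcoal-stripped serum. Transfection was transient, the share of cells that took up the constructs was not analysed here, and the probes were designed for human and not monkey RNA. In bulk RNA, fewer cells making a transcript and less of it per cell cannot be told apart.

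These genes encode secreted signals of inflammation and the enzyme of a further one. IL6, IL11 and LIF are cytokines that each bind a receptor of their own and then signal through the shared subunit gp130. CCL2 and CCL20 attract monocytes and lymphocytes, and CXCL1, CXCL2 and CXCL8 attract neutrophils. PTGS2 is the inducible cyclooxygenase of prostaglandin synthesis, and CSF1 is a growth factor of macrophages. Many of these genes are driven by NF-kB and AP-1, and repression of such genes by hormone-bound GR is a textbook basis of the anti-inflammatory action of glucocorticoids.

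The 12 arrays lay on 3 slides, and the slides did not hold the groups evenly. Slide 1 held the 3 GR vehicle arrays and GR Dex replicate 1. Slide 2 held GR Dex replicates 2 and 3 with GR+MDFIC vehicle replicates 1 and 2. Slide 3 held the 3 GR+MDFIC Dex arrays and GR+MDFIC vehicle replicate 3. Slide 3 was dimmer before scaling, with a 75th percentile signal between 365 and 414, against 758 to 948 on the other slides. The share of spots well above background, controls aside, ran from 70.3% to 75.2% over the 12 arrays.

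Detection divided the set. IL6, IL11, LIF, CCL2 and CXCL2 each had a probe that was well above background on all 12 arrays, so the same 5 genes were measured with and without MDFIC and with and without Dex. The single probes of CCL20, CXCL8 and CXCL1 were not well above background on any of the 12 arrays. PTGS2 has a probe printed at 10 positions of each array, and 2 of its 120 spots were well above background, 1 on a GR Dex array and 1 on a GR vehicle array. The spot on the GR Dex array was flagged as an outlier and left out of the averages. A probe below background on an array of another species does not show that the monkey gene was silent, and the match of each probe to monkey RNA was not tested.

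**Figure D1:**
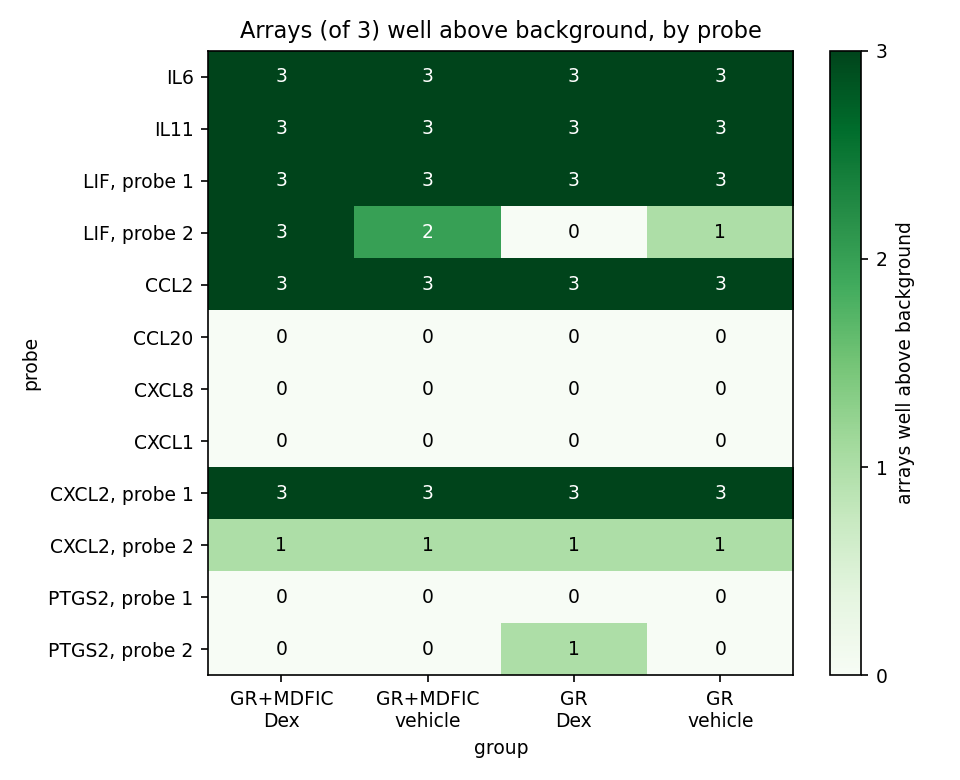
Number of arrays (of 3) on which each of the 12 probes was well above background, by probe (rows) and group (columns), with a probe printed several times counted where at least 0.5 of its unflagged spots were. 5 genes have a probe at 3 in every group, and CCL20, CXCL8 and CXCL1 are at 0 throughout.

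Among the measured genes, Dex lowered the gp130 cytokines and left the chemokines without a call. IL11 fell to 48.9% of its vehicle level in GR+MDFIC cells and to 46.9% in GR cells. LIF fell to 74.1% in GR+MDFIC cells and to 71.8% in GR cells, and IL6 fell to 77.5% in GR+MDFIC cells and to 70.0% in GR cells. CCL2, at 97.7% and 102% of vehicle in GR+MDFIC and in GR cells, and CXCL2, at 89.3% and 90.8%, did not pass the test in either. A call is a Benjamini-Hochberg adjusted p under 0.05 in limma over all 23754 transcripts tested. By it 3 of 5 measured genes fell and 0 rose in GR+MDFIC cells, where 6.94% of all transcripts were called lower and 13.5% were called either way. In GR cells the same 3 of 5 fell and 0 rose, where 2.77% of all transcripts were called lower and 7.17% were called either way. Each slide that held both Dex and vehicle arrays of a kind of cell had only 1 array in one of the arms. The p of a fit with slide as a fixed block therefore rests on the spread among arrays that share a group and a slide. These include the larger arm, and the lone array is assumed to vary like them. In that fit 2 of 5 (IL11 and IL6) were called lower in each kind of cell, where 1.09% of all transcripts were in GR+MDFIC cells and 0.956% in GR cells. Every Dex array was below every vehicle array for 4 of 5 genes in GR+MDFIC cells, as for 16.2% of all transcripts, and for 3 of 5 in GR cells, as for 11.8%. The median log2 fold over the 5 genes was -0.37 in GR+MDFIC cells and -0.48 in GR cells, beside medians over all tested transcripts of -0.01 in GR+MDFIC cells and 0.01 in GR cells.

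**Figure D2:**
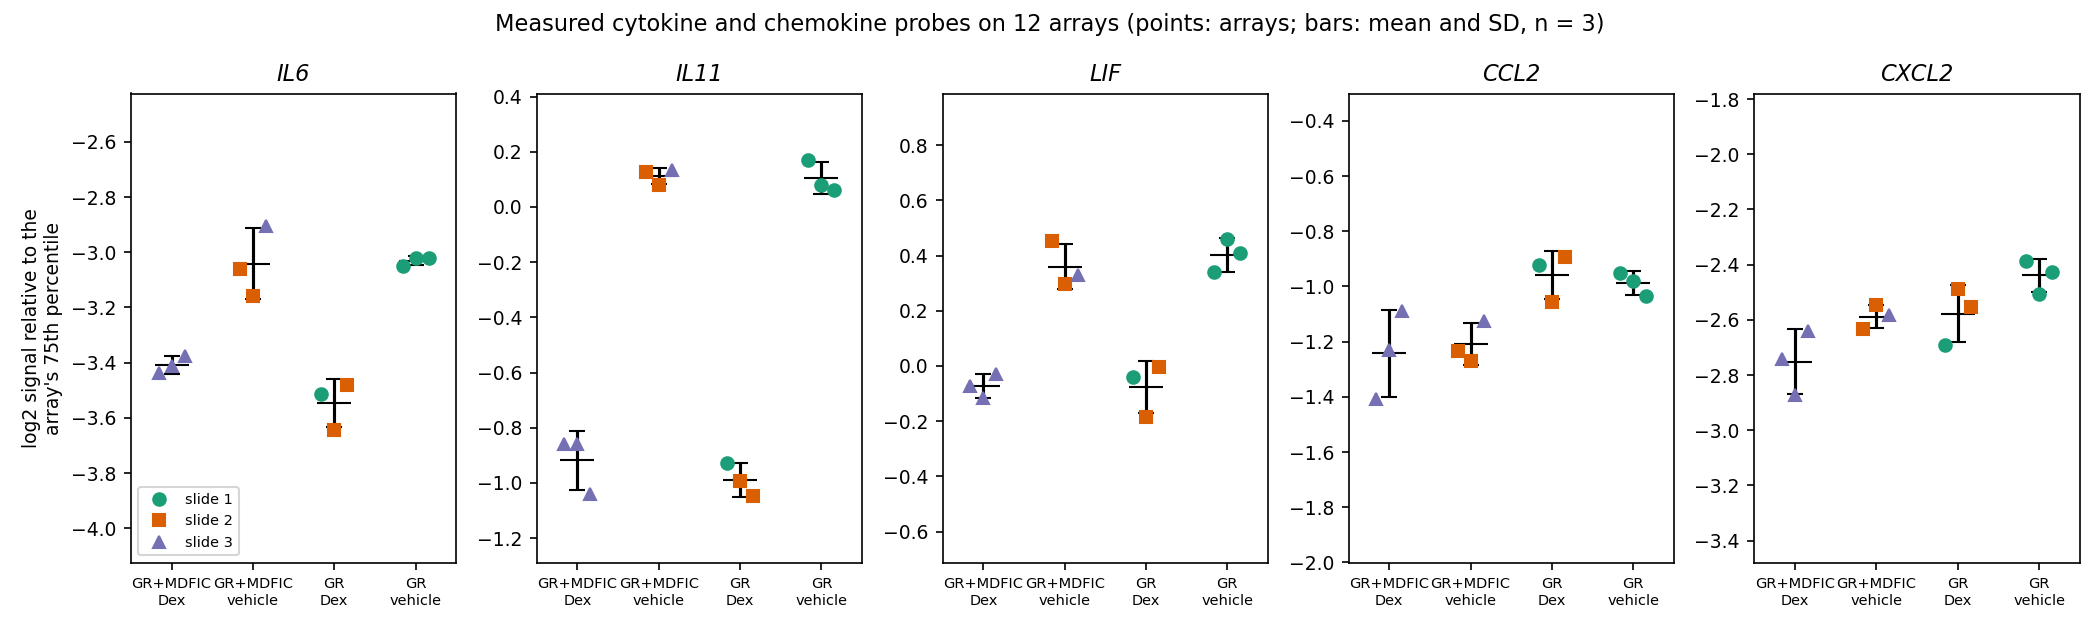
Level of the 5 measured genes on each of the 12 arrays, as log2 of the signal relative to the array's 75th percentile (vertical axis, the same span in each panel), by group; symbols and colours mark the slide, and bars give the mean and SD of 3 arrays. IL6, IL11 and LIF sit lower on every Dex array than on any vehicle array, while CCL2 overlaps between Dex and vehicle in both kinds of cell.

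IL11, a cytokine of the IL6 family that acts on stromal and blood-forming cells, gave the largest Dex effect among the 5. All levels here are log2 values relative to the array's 75th percentile signal, so 0 is the signal of a fairly bright probe, and levels of different probes are not compared. IL11 read -0.86, -0.86 and -1.04 on the GR+MDFIC Dex arrays, against 0.13, 0.08 and 0.13 on the GR+MDFIC vehicle arrays. It read -0.93, -0.99 and -1.05 on the GR Dex arrays, against 0.17, 0.08 and 0.06 on the GR vehicle arrays. Every Dex array was below 0 and every vehicle array above it, with no overlap. The means were -0.92 ± 0.11 with Dex and 0.11 ± 0.03 with vehicle in GR+MDFIC cells (SD, n = 3 each), and -0.99 ± 0.06 with Dex and 0.10 ± 0.06 with vehicle in GR cells (SD, n = 3 each).

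The limma log2 fold of IL11 was -1.03 ± 0.06 in GR+MDFIC cells (SE, Benjamini-Hochberg adjusted p = 6.63e-06), with a 95% interval of 44.5% to 53.8% of the vehicle level. It was -1.09 ± 0.06 in GR cells (SE, limma, Benjamini-Hochberg adjusted p = 6.21e-06), with an interval of 42.7% to 51.5%. Of all tested transcripts, 2.84% had a lower log2 fold with Dex in GR+MDFIC cells and 0.366% did in GR cells. Within slide 3, where 3 Dex arrays met 1 vehicle array, the log2 fold was -1.05 (limma with slide as a fixed block, adjusted p = 0.00094), and within slide 1, where 1 Dex array met 3 vehicle arrays, it was -1.03 (adjusted p = 0.00115, same fit). Each of these rests on the 1 array of its smaller arm.

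LIF, leukaemia inhibitory factor, a gp130 cytokine known for holding stem cells undifferentiated, was read by 2 probes. Its brighter probe gave -0.07, -0.12 and -0.03 on the GR+MDFIC Dex arrays, against 0.45, 0.30 and 0.33 on the GR+MDFIC vehicle arrays. On the GR Dex arrays it gave -0.04, -0.18 and -0.01, against 0.34, 0.46 and 0.41 on the GR vehicle arrays. All 6 Dex arrays were below 0 and all 6 vehicle arrays above it. The group means were -0.07 ± 0.04 with Dex and 0.36 ± 0.08 with vehicle in GR+MDFIC cells (SD, n = 3 each), and -0.08 ± 0.10 with Dex and 0.40 ± 0.06 with vehicle in GR cells (SD, n = 3 each).

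The log2 fold of LIF was -0.43 ± 0.06 in GR+MDFIC cells (SE, limma, Benjamini-Hochberg adjusted p = 0.00198) and -0.48 ± 0.06 in GR cells (SE, limma, Benjamini-Hochberg adjusted p = 0.00149). The 95% intervals ran from 67.2% to 81.8% of vehicle in GR+MDFIC cells and from 65.1% to 79.2% in GR cells. Within slides the log2 fold was -0.40 on slide 3 and -0.44 on slide 1, but neither passed in that fit (limma, slide as a fixed block, adjusted p = 0.0766 and 0.0539).

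The dimmer LIF probe was well above background on 3 of 3 GR+MDFIC Dex arrays, 2 of 3 GR+MDFIC vehicle arrays, 0 of 3 GR Dex arrays and 1 of 3 GR vehicle arrays. On the 4 arrays of slide 3 it read -4.96, -4.88 and -5.07 with Dex and -4.90 with vehicle, so it did not separate Dex from vehicle there. On the other slides it ranged from -7.12 to -5.05. It entered the fit through the GR+MDFIC Dex arrays alone, the group where it was well above background throughout, so no fold or test is given for it. With both probes averaged, the log2 fold of LIF was -0.05 in GR+MDFIC cells and -0.29 in GR cells and passed in neither (limma, adjusted p = 0.875 and 0.507). That average takes in the dimmer probe, which was well above background on only 6 of 12 arrays, so no conclusion is drawn from it.

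IL6, the founding member of this cytokine family and a driver of the acute-phase response, was dim but was read at 10 positions per array, all 120 of which were well above background. Averaged over these positions, it read -3.44, -3.41 and -3.38 on the GR+MDFIC Dex arrays, against -3.06, -3.16 and -2.91 on the GR+MDFIC vehicle arrays. It read -3.51, -3.65 and -3.48 on the GR Dex arrays, against -3.05, -3.02 and -3.02 on the GR vehicle arrays. Every Dex array lay below every vehicle array in both kinds of cell. The means were -3.41 ± 0.03 with Dex and -3.04 ± 0.13 with vehicle in GR+MDFIC cells (SD, n = 3 each), and -3.55 ± 0.09 with Dex and -3.03 ± 0.02 with vehicle in GR cells (SD, n = 3 each).

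The log2 fold of IL6 was -0.37 ± 0.07 in GR+MDFIC cells (SE, limma, Benjamini-Hochberg adjusted p = 0.00714) and -0.52 ± 0.07 in GR cells (SE, limma, Benjamini-Hochberg adjusted p = 0.00143). Within slide 3 it was -0.50 and within slide 1 it was -0.48, each with 1 array in an arm. Both were called with the spread taken from arrays that share a group and a slide (limma, slide as a fixed block, adjusted p = 0.0133 and 0.0181). In a fit of the GR+MDFIC groups alone the call was lost (limma, adjusted p = 0.0632 at the same fold). With normexp background correction, which adds an offset of 50 to the signal, and quantile scaling, the log2 folds were -0.18 in GR+MDFIC cells and -0.25 in GR cells, and both were still called. The processed signal of IL6 lay between 33.6 and 113 on the 12 arrays.

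The repeated spots show how far single readings of a probe spread within an array. The SD of the 10 IL6 spots within an array ranged from 0.14 to 0.33 on the log2 scale with a median of 0.20. That median is more than the SD between replicate arrays in any group, which is an SD of means over 10 spots. The spread includes differences between positions. On GR Dex replicate 1, positions 1 to 5 read -3.32 to -3.10 and positions 6 to 10 read -3.87 to -3.74. On GR+MDFIC Dex replicate 2, of slide 3, they read -3.75 to -3.40 and -3.39 to -3.23. Positions 6 to 10 mostly read lower than positions 1 to 5 on slides 1 and 2, and mostly higher on slide 3. Spots of an array are no replicates, so the same positions were set against each other across arrays. At 10 of 10 positions the mean IL6 level was lower with Dex than with vehicle, by 0.15 to 0.73 in GR+MDFIC cells and by 0.37 to 0.67 in GR cells. The slides held Dex and vehicle unevenly, so matching positions does not remove a position pattern that differs by slide. These positions share their RNA and are given as a description. For CCL2, also printed at 10 positions, the SD within an array was between 0.03 and 0.10.

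**Figure D3:**
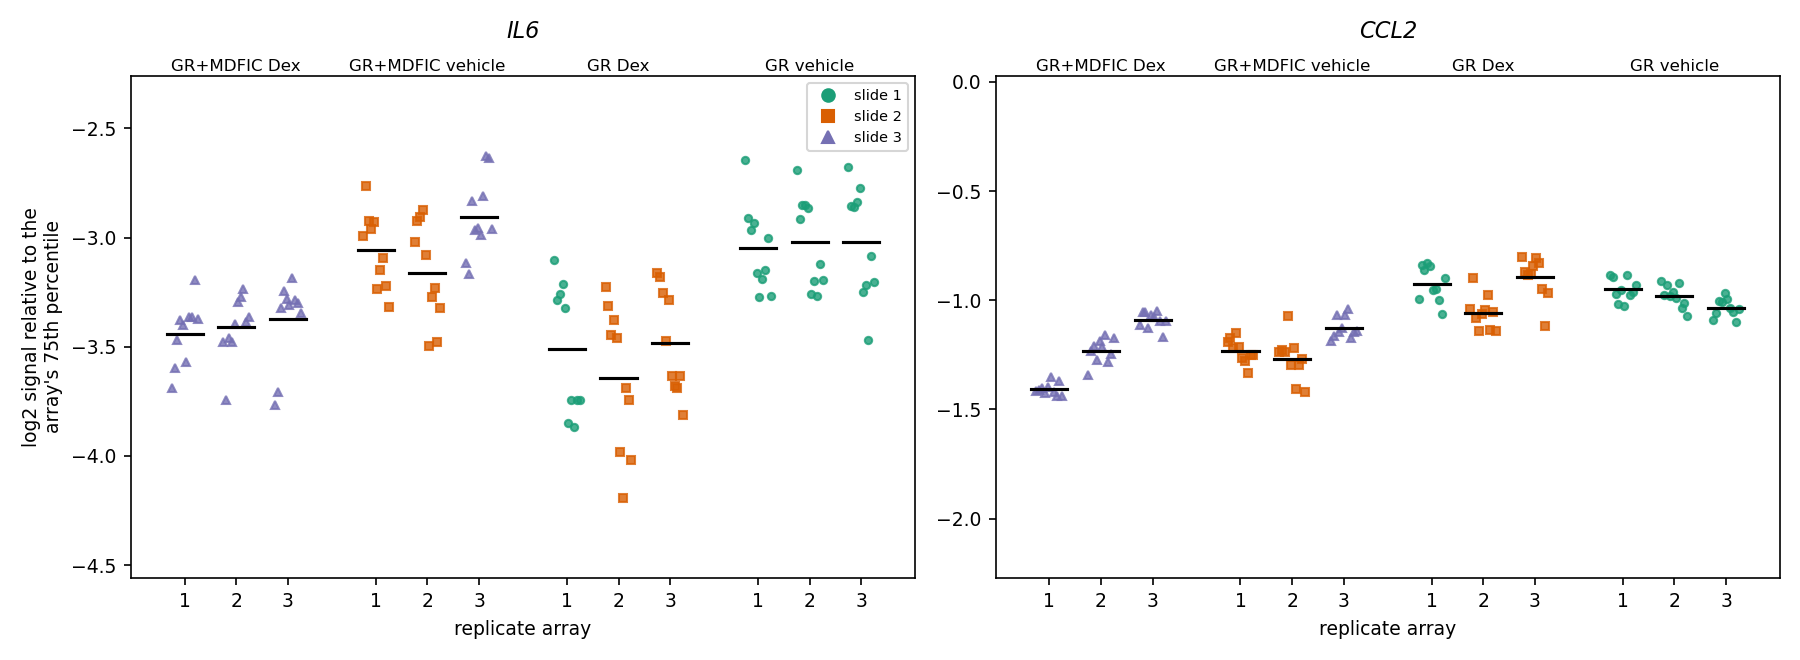
All 10 spots of the IL6 probe (left) and of the CCL2 probe (right) on each array, as log2 of the signal relative to the array's 75th percentile; horizontal lines are array means, columns are replicate arrays by group, and symbols mark the slide. IL6 spots scatter widely within each array but their means are lower with Dex, and the CCL2 means of GR+MDFIC arrays all lie below those of GR arrays.

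CCL2, the chemokine that draws monocytes through its receptor CCR2, did not separate by hormone. It read -1.41, -1.23 and -1.09 on the GR+MDFIC Dex arrays, against -1.23, -1.27 and -1.13 on the GR+MDFIC vehicle arrays. It read -0.92, -1.06 and -0.90 on the GR Dex arrays, against -0.95, -0.98 and -1.03 on the GR vehicle arrays. Dex and vehicle overlapped in both. The log2 fold with Dex was -0.03 ± 0.08 in GR+MDFIC cells and 0.03 ± 0.08 in GR cells (SE, limma, Benjamini-Hochberg adjusted p = 0.807 and 0.92). The 95% intervals were 86.1% to 111% of vehicle in GR+MDFIC cells and 89.9% to 116% in GR cells. They leave out the estimates for IL11, LIF and IL6 in the same cells, which have errors of their own. In GR+MDFIC cells the IL6 interval ended at 86.12% and the CCL2 interval began at 86.06%, so these overlapped. The IL11 and LIF intervals there, and all those in GR cells, lay below that of CCL2. With slide as a fixed block the log2 fold of CCL2 was -0.12 in GR+MDFIC cells (95% interval -0.40 to 0.16) and 0.06 in GR cells (interval -0.214 to 0.343). In GR+MDFIC cells that interval overlapped those of IL6 (-0.69 to -0.32) and LIF (-0.63 to -0.18) in the same fit, but not that of IL11. In GR cells it overlapped none of the 3, with LIF ending just below it at -0.217. Differences between genes were not tested.

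CXCL2, a neutrophil-attracting chemokine that acts through CXCR2, was read by 2 probes and was measured throughout by the brighter. That probe gave -2.74, -2.87 and -2.64 on the GR+MDFIC Dex arrays, against -2.63, -2.55 and -2.58 on the GR+MDFIC vehicle arrays. It gave -2.69, -2.49 and -2.55 on the GR Dex arrays, against -2.39, -2.50 and -2.42 on the GR vehicle arrays. The GR+MDFIC groups did not overlap, by a narrow margin, and the GR groups overlapped.

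The log2 fold of CXCL2 with Dex was -0.16 ± 0.07 in GR+MDFIC cells and -0.14 ± 0.07 in GR cells (SE, limma, Benjamini-Hochberg adjusted p = 0.154 and 0.349). The 95% intervals ran from 79.8% to 99.9% of vehicle in GR+MDFIC cells and from 81.1% to 102% in GR cells. Within slide 1 the log2 fold in GR cells was -0.25 (limma, slide as a fixed block, adjusted p = 0.247). The dimmer CXCL2 probe was well above background on 1 of 3 arrays in every group, at levels from -6.37 to -5.08 over all 12 arrays, and was not tested.

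**Figure D4:**
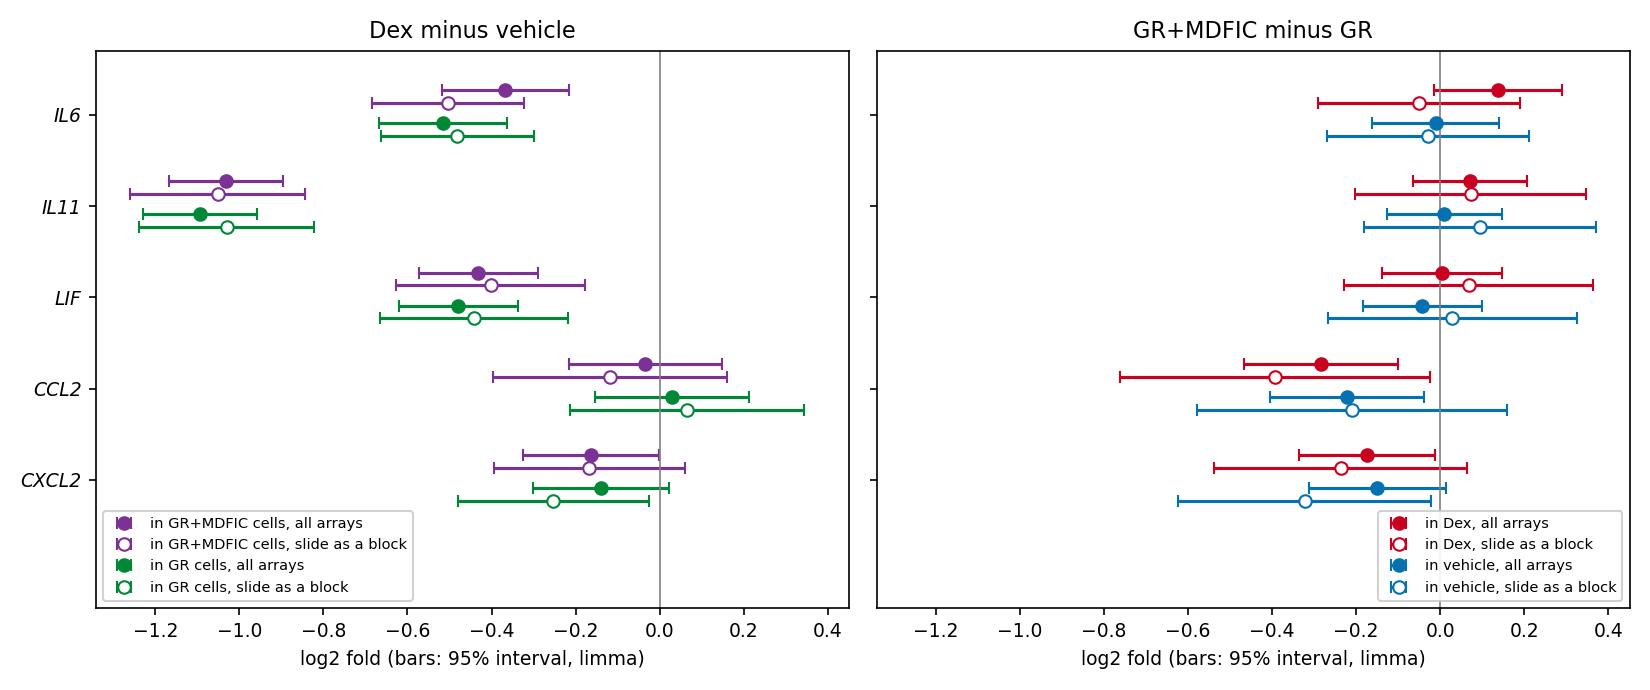
Log2 folds of the 5 measured genes with 95% intervals, as Dex minus vehicle (left) and as GR+MDFIC minus GR (right); filled points are from all arrays in one limma model, and open points have slide as a fixed block. On the left IL11 lies near -1 and IL6 and LIF between -0.52 and -0.37 (filled points) in both kinds of cell, and on the right CCL2 and CXCL2 lie below 0 while IL11 and LIF lie near it.

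Whether MDFIC altered the Dex response was tested as the difference of the 2 Dex effects, that in GR+MDFIC cells minus that in GR cells. None of the 5 measured genes passed (limma, Benjamini-Hochberg adjusted p from 0.606 to 0.947), and 0.0589% of all transcripts were called in this test. At an unadjusted p under 0.05, 0 of the 5 passed, beside 9.85% of all transcripts. The difference was 0.06 for IL11, with a 95% interval of -0.13 to 0.25 on the log2 scale. It was 0.05 for LIF (interval -0.15 to 0.25) and 0.15 for IL6 (interval -0.07 to 0.36). For CCL2 and CXCL2 the differences were -0.06 and -0.02, with intervals of -0.32 to 0.20 and -0.25 to 0.21. For IL11 the interval of this fit without slide puts the Dex to vehicle ratio in GR+MDFIC cells between 91.3% and 119% of that ratio in GR cells. With slide as a fixed block the intervals were wider. The difference was then -0.02 for IL11 (interval -0.32 to 0.27), 0.04 for LIF (-0.28 to 0.36) and -0.02 for IL6 (-0.28 to 0.24). It was -0.18 for CCL2 (-0.58 to 0.21) and 0.09 for CXCL2 (-0.24 to 0.41). A p that misses the threshold does not show that the responses were equal.

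The levels of the same genes were also set between GR+MDFIC and GR cells at the same treatment. None of the 5 was called, either in Dex, where 5.54% of all transcripts were, or in vehicle, where 0.884% were. In Dex 2 of the 5 had an unadjusted p under 0.05, CCL2 and CXCL2, as did 24.7% of all transcripts. In vehicle 1 of the 5 did, CCL2, as did 17.6% of all transcripts. IL6 with Dex was higher on every GR+MDFIC array than on any GR array, by 0.14 ± 0.07 in the mean log2 level (SE, limma, Benjamini-Hochberg adjusted p = 0.245). With slide as a fixed block this difference was -0.05. Groups did not overlap, in either direction, for 32.2% of all transcripts in Dex. At 5 of 10 positions the mean IL6 level with Dex was lower in GR+MDFIC cells, with differences from -0.48 to 0.60. IL11, LIF and IL6 in vehicle differed by 0.01, -0.04 and -0.01 on the log2 scale, with 95% intervals that all lay within -0.18 to 0.15. All GR vehicle arrays lay on slide 1 and no GR+MDFIC vehicle array did, and with slide as a fixed block the intervals were wider. They were -0.18 to 0.37 for IL11, -0.27 to 0.33 for LIF and -0.27 to 0.21 for IL6, around differences of 0.09, 0.03 and -0.03.

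CCL2 was lower on all 6 GR+MDFIC arrays, at -1.09 at most, than on all 6 GR arrays, at -1.06 at least, a narrow margin. The share of all transcripts that separate in this way over both treatments was not counted. Its log2 fold was -0.28 ± 0.08 in Dex and -0.22 ± 0.08 in vehicle (SE, limma, Benjamini-Hochberg adjusted p = 0.0687 and 0.215). At 10 of 10 array positions GR+MDFIC cells had the lower mean CCL2 level, by 0.18 to 0.37 in Dex and by 0.12 to 0.29 in vehicle. These positions share their RNA, so the count is a description and adds no independent support. Groups that do not overlap, in either direction, were found for 32.2% of all tested transcripts in Dex and 22.1% in vehicle. No slide held both arms of either comparison. With slide as a fixed block, which links the slides through groups that span them, the log2 folds were -0.39 and -0.21 (adjusted p = 0.738 and 0.681, limma). On slide 2, GR+MDFIC vehicle arrays read -1.23 and -1.27, against -1.06 and -0.90 on GR Dex arrays, which differ in hormone as well. When limma let the variance follow the signal and used its robust option, the fold in Dex was called (adjusted p = 0.0454).

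CXCL2 stood at -0.17 ± 0.07 in Dex and -0.15 ± 0.07 in vehicle between GR+MDFIC and GR cells (SE, limma, Benjamini-Hochberg adjusted p = 0.175 and 0.316), so neither passed. With slide as a fixed block the log2 folds were -0.24 in Dex (95% interval -0.54 to 0.06) and -0.32 in vehicle (interval -0.62 to -0.02), and neither was called (limma, adjusted p = 0.803 and 0.479).

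The remaining genes gave readings at the level of background. CXCL8, the main human neutrophil chemokine, read from -8.45 to -7.84 over the 12 arrays, below the dimmest probe counted as well above background on any array, which lay between -6.89 and -5.84. CXCL1, a related chemokine, ranged from -8.54 to -6.60, and CCL20, which attracts lymphocytes and dendritic cells through CCR6, from -8.27 to -6.70. The 10-position PTGS2 probe ranged from -8.43 to -7.81. A second PTGS2 probe was well above background on 1 array, GR Dex replicate 1, at -6.06, while the other GR Dex arrays read -8.61 and -7.62. No fold is given for these genes, since neither arm of any comparison was measured.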

How the data were processed

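The authors' deposited scanner files give each spot's processed signal, an intensity on a linear scale, background-subtracted and spatially detrended by Agilent Feature Extraction (12.0.0.7 for slides 1 and 2, 12.0.3.1 for slide 3) with no scaling between arrays, per the file headers. Each spot also carries deposited flags (other values, 1 where true) for being well above background, saturated or an outlier, per the file headers. The series table holds the same signals (largest difference 0).

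Here, log2 signals were centred on each array's 75th percentile of the 43376 non-control spots, outlier spots (6 in the member probes, all PTGS2) were left out, and spots of a probe were averaged. A probe counted as well above background where at least 0.5 of its spots were. It was tested where that held on 3 arrays of a group, with at least 2 usable arrays in each group. The probe with the highest mean stood for an accession. A group-means model over 12 arrays was fitted in limma 3.58.1 (R 4.3.3; two-sided, 8 residual degrees of freedom, 6 with slide as a fixed block) and tested on simulated data. With slide as a block the Dex effects are the values within slides 1 and 3. Figures used matplotlib 3.10.9. Precision is limited by the number of arrays. The members and lists were chosen with earlier results of these data known. Named genes are all members, whatever their values. Planned lists of receptors, other cytokines, cell type markers and promoter motifs, the naming of transcripts with a like pattern, and a look-up of GR and MDFIC were not used here, since the files pair accessions with no names and no annotation was given. Alternatives were other background corrections, scalings, filters and probe rules, slide and replicate blocks, the compared groups alone, trend and robust variance, a stricter threshold and leaving out each array. Leaving out the arrays of slide 3 was chosen after seeing the data.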

Additional observations from a re-analysis of the deposited data

How the results depend on the processing

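IL11, IL6 and LIF were called lower with Dex in both kinds of cell on leaving out any 1 array (log2 folds in GR+MDFIC and GR cells from -1.06 to -0.97 and -1.12 to -1.06 for IL11, -0.43 to -0.30 and -0.55 to -0.47 for IL6, -0.46 to -0.39 and -0.51 to -0.42 for LIF). The same 3 were called lower in GR cells without the 4 arrays of slide 3. Of 655 values of single genes under alternatives, 0 called values changed sign, 5 lost their call and 1 gained one. Not all of the 655 could change, since the alternative with the deposited series signals used the same values. Leaving out an array of a group that was not compared also left the log2 fold as it was. 4 losses were LIF with slide as a fixed block or with its probes averaged, and 1 was IL6 in GR+MDFIC cells fitted alone. The gain was CCL2, so that 1 gene was called between GR+MDFIC and GR cells in Dex with a trend and robust variance, against 0 otherwise. Another 25 uncalled values changed sign. The causes were not tested. Dex and vehicle deviations with the same replicate number were little correlated (from -0.10 to 0.06). Replicates of a group lay on different slides in part, so this cannot show whether the numbers paired the arrays. A replicate block gave the same 3 calls with Dex in each kind of cell and 0 in the other comparisons. It moved the count over all transcripts to 5 from 14 for the difference of the Dex effects and to 115 from 210 for MDFIC in vehicle.

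The counts over all transcripts moved more. For Dex in GR+MDFIC cells 3217 became 811 with slide as a fixed block, 1243 in the compared groups alone and 1357 at an adjusted p under 0.01. It became 6312, 1815 or 1981 without GR+MDFIC vehicle replicate 3, 1 or 2, and 2117 without Dex replicate 3. For Dex in GR cells 1704 became 848, 1086 and 854 under the same 3 settings. Without GR vehicle replicate 3 or 1 it became 1073 or 1120, and without GR Dex replicate 2 or 1 it became 1090 or 1092. For MDFIC in Dex 1317 became 2335 with normexp and quantile scaling, 862 with no filter, 48 and 114 with slide as a fixed or random block, 2042 with trend and robust variance, 59 at the stricter threshold and 2258 in the compared groups alone. Leaving out 1 array gave 90 (GR Dex replicate 3) to 3106 (GR+MDFIC vehicle replicate 3), and 10 of 12 arrays moved it by over 1.5 times. For MDFIC in vehicle 210 became 115 with no filter, 71 and 106 with the slide blocks, 328, 57 and 33 under those last 3 settings, and 82 (GR vehicle replicate 3) to 565 (GR+MDFIC vehicle replicate 3) without 1 array, with 6 of 12 moving it as far. For the difference of the Dex effects 14 became 9 with normexp and quantile scaling (22.2% higher, against 7.14%), 3 for probes well above background on all 12 arrays, 6 with a random slide block, 5 with trend and robust variance and 2 at the stricter threshold. Each of the 12 arrays moved it, to between 2 (GR Dex replicate 3, among others) and 1797 (GR+MDFIC vehicle replicate 3). Signal over background limits what CCL20, CXCL8, CXCL1 and PTGS2 can show.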
